A study of Mus musculus with 4 samples.

Results

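SAGA is a large coactivator complex that acetylates and deubiquitinates histones at promoters. Counts on the genes of 10 of its subunits, Trrap, Supt3, Supt7l, Taf6l, Tada1, Tada2b, Tada3, Kat2a, Kat2b and Atxn7, were analysed in RNA of mouse spermatocytes with and without the tudor domain protein TDRD6. The genes were taken by symbol and matched to their Ensembl identifiers, which gave 10 of 37718 gene rows, 162 of 207562 introns and 478 of 605144 exon segments and junctions. Trrap and Supt3 were chosen by measured values of these same samples, the higher count on intron 4 of Trrap and the lower gene count of Supt3 in Tdrd6-/- cells. Their values between genotypes are therefore given as a description, and nothing is read from a call on them. There were 2 Tdrd6+/- and 2 Tdrd6-/- samples, all of testis cells from males at 20 days post partum (dpp), each pooled from at least 4 mice. Cells were captured with magnetic beads through human CD4, which is driven by the Tdrd6 promoter in both genotypes. The Tdrd6+/- controls carry a disrupted allele as well, and wild type cells were not analysed here. The preparations were described as mostly, not entirely, diplotene cells.

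In SAGA, TRRAP is the scaffold that binds transcription activators. It belongs to the family of phosphatidylinositol 3-kinase-related kinases but lacks kinase activity, and it is shared with the TIP60 acetyltransferase complex. SUPT3, SUPT7L, TAF6L and TADA1 build the core, where SUPT3 contacts the TATA-binding protein. KAT2A or KAT2B, alternative catalytic subunits, acetylate histone H3 together with TADA2B and TADA3, and ATXN7 anchors the module that removes ubiquitin from histone H2B.

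Trrap intron 4 lies on chromosome 5 of mm10 at chr5:144771250-144771607 on the plus strand, between exons 2 and 3 of the transcript Trrap-203 in the GENCODE M21 annotation. It directly follows the exon that holds the start codon, and is 358 bases long. None of the 15 annotated Trrap transcripts has an exon base in it, and 6 of them join the exons on either side. The coding sequence that is spliced together across introns 4 and 5 is shown because the results turn on intron 4. It begins at the start codon and joins 100 bases at chr5:144771150-144771249, the 50 bases of exon 3 at chr5:144771608-144771657 and the first 15 bases of exon 4 at chr5:144777103-144777117. Capitals mark, at each of the joins, the last 3 bases of an exon and the first base of the next.
Trrap-203, introns 4 and 5 removed: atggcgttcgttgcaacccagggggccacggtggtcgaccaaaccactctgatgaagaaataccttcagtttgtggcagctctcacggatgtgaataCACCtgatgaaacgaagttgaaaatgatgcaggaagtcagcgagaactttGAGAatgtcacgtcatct
The exon before intron 4 ends in CAC and the exon before intron 5 in GAG. Of 223282 annotated junctions of protein-coding transcripts, each counted once, 80.9% follow an exon that ends in G, 2.70% an exon that ends in C and 0.412% an exon that ends in CAC. Among the 70 junctions of Trrap-203 itself, 59 follow a G, 3 follow a C, and the one at intron 4 is the only one that follows CAC. These letters describe the exon side of the splice sites, and the intron's own bases were not used here.

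The 4 libraries held 43778449 to 47221554 tallied fragments, of which 21.9 to 31.0% fell on introns. Replicates of a genotype differed by more than sampling noise. Tdrd6 was counted at 1269 and 1412 CPM (gene counts as a rate of the library total after TMM scaling) in Tdrd6+/- and at 11.4 and 12.5 CPM in Tdrd6-/- cells, a log2 change of -6.81. Markers of late spermatocytes summed to 8863 and 8692 CPM of all gene counts in Tdrd6+/- against 9642 and 10572 CPM in Tdrd6-/- cells. Of these markers, Sycp1 and Sycp2 were called higher and Piwil1 was called lower in Tdrd6-/- cells. Spermatid markers summed to 9.11 and 12.5 against 22.5 and 20.1, with Acrv1 and Spaca1 called higher and Prm1 at 0 in 3 samples. Sertoli cell markers summed to 69.9 and 68.7 against 87.4 and 90.7, spermatogonium markers to 21.7 and 20.0 against 26.5 and 30.2, and markers of Leydig, peritubular and macrophage cells to 2.61 to 22.9, with none of the 22 tested genes of these 5 lists called by edgeR or DESeq2 and 3 at an unadjusted p under 0.05 in edgeR. The Leydig marker Insl3 was read from a row merged with another gene. The part of these cell types in the results below was not tested, and in such bulk samples fewer cells of a type and less RNA per cell cannot be told apart.

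Intron 4 dominated the intronic counts of Trrap in every sample and was higher in both Tdrd6-/- samples. In Tdrd6+/- cells, 2544 fragments of replicate 1 and 2036 of replicate 2 were counted there, and in Tdrd6-/- cells 4823 and 4183. This was 37.9% and 33.9% of all intron counts of the gene in Tdrd6+/- and 49.6% and 56.7% in Tdrd6-/- cells, so the genotypes did not overlap. The means were 35.9% ± 2.88 and 53.1% ± 4.99 (SD, n = 2 each). Set against the fragments counted on the gene's exons, the difference was larger. Intron 4 had 28.0 and 23.1 counts per 100 Trrap gene counts in Tdrd6+/- and 59.6 and 63.1 in Tdrd6-/- cells, which is 2.40 times as many on average. In the usage model, which sets an intron against the other introns of its gene, the log2 change was 1.02 (SE 0.17).

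**Figure D1:**
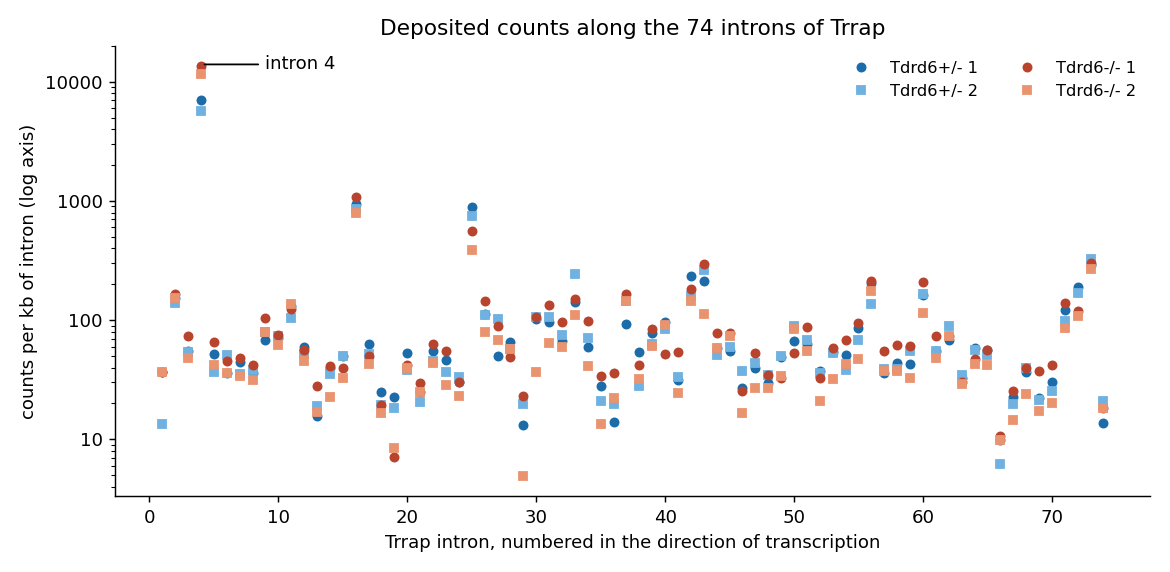
Counts per kb of intron (y axis, log scale) for the 74 introns of Trrap in order (x axis), with a point for each of the 4 samples; zero counts cannot be drawn. Intron 4 stands above all other introns in every sample, and both Tdrd6-/- points lie above both Tdrd6+/- points.

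Per base of sequence, intron 4 was covered far more densely than the rest of the gene. Over the 4 samples it held 37950 counts per kb, 186 times the median of the other 73 Trrap introns (204 counts per kb), among which the densest reached 3674. Among 16360 introns of 200 to 600 bases with at least 10 counts in the whole data set it ranked 3 from the top. A dominating intron is not particular to Trrap. Of 1743 genes with at least 20 introns and 500 intron counts, 147 had an intron that took as large a share as Trrap intron 4 did in the summed samples (45.6%), and the median top share was 20.8%.

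The exons on either side had nearly the same unscaled counts in all samples. The segment before it, 161 bases long, had 245 and 246 counts in Tdrd6+/- and 246 and 229 in Tdrd6-/- cells, and the 50-base segment after it had 164, 161, 165 and 158 counts in the same order. Intron 4 carried 7.11 and 5.69 counts per base in Tdrd6+/- and 13.5 and 11.7 in Tdrd6-/- cells, more than the exon before it (1.42 to 1.53) or after it (3.16 to 3.30) in each sample. Per 100 Trrap gene counts, both flanking segments were slightly higher in Tdrd6-/- cells, at 2.70 and 2.80 against 3.04 and 3.45 before the intron. Scaled to CPM, both had lower means in Tdrd6-/- cells. The ratio of genotype means was at most 0.879 in all Trrap segments with a mean count of at least 50.

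The junction that joins these exons and removes intron 4 was counted as well. Its count was 78 and 81 in Tdrd6+/- against 101 and 85 in Tdrd6-/- cells, which is 0.859 and 0.921 against 1.25 and 1.28 per 100 Trrap gene counts. Per gene count the spliced junction was thus higher in both Tdrd6-/- samples, with a log2 usage change of 0.51 (SE 0.24). The Trrap gene count was itself lower in those samples, and the junction was not called by DESeq2. In CPM, no Trrap junction with a mean count of at least 50, this junction included, had a ratio of genotype means above 1.02. For each fragment on the junction there were 32.6 and 25.1 fragments on intron 4 in Tdrd6+/- and 47.8 and 49.2 in Tdrd6-/- cells.

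**Figure D2:**
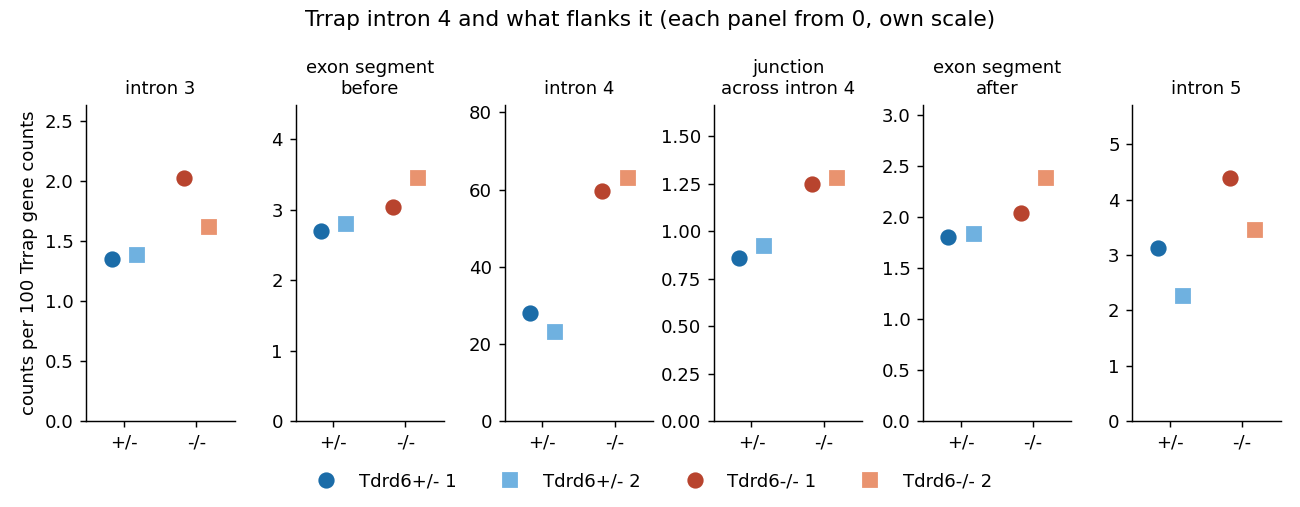
Counts per 100 Trrap gene counts (y axis, from 0, a scale of its own in each panel) on intron 3, the exon segment before intron 4, intron 4, the junction across it, the segment after it and intron 5, with a point for each sample. Intron 4 went from 23.1 and 28.0 in Tdrd6+/- to 59.6 and 63.1 in Tdrd6-/- cells, while the flanking segments stayed between 1.81 and 3.45.

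Neighbouring introns were low. Intron 3 (2241 bases) had 123, 122, 164 and 107 counts and intron 5 (5445 bases, with the small nucleolar RNA gene Gm23995 inside, at 10 to 19 counts) had 284, 199, 356 and 229 counts, both with overlapping genotypes. Per 100 Trrap gene counts neither overlapped, with at most 1.39 in Tdrd6+/- and at least 1.61 in Tdrd6-/- cells on intron 3, and at most 3.13 and at least 3.45 on intron 5. Together the 73 other introns summed to 4162 and 3977 in Tdrd6+/- against 4899 and 3199 in Tdrd6-/- cells, which overlapped. Their log2 usage changes had a median of -0.50 and were negative in 71 of 73, since intron 4 is part of what they are set against. With intron 4 left out of the table, a setting added after seeing the data, the median was -0.05, with 40 of 73 negative and none called by DESeq2. Of 27 Trrap introns with a mean count of at least 50, 14 were higher in both Tdrd6-/- samples in CPM of all intron counts and 2 were lower, beside 25.2% and 20.7% of all such introns. Of all 162 member introns, 157 were tested and 27 passed the filter on the mean count. Intron 4 of Trrap, which was picked for this, was the single one called at a false discovery rate of 0.1, beside 1.94% of all introns that passed (0.716% higher and 1.22% lower). Nothing is read from that call, since the same contrast chose the intron. The usage test of edgeR called intron 25 of Trrap besides, which had 68 and 58 counts in Tdrd6+/- and 43 and 30 in Tdrd6-/- cells.

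Gene expression showed a fall of Supt3, Trrap and Atxn7 and the other subunits did not pass the test. Of the 10 members, 3 were called by edgeR at a false discovery rate of 0.1, all lower in Tdrd6-/- cells, beside 4.8% of 16555 genes called in either direction and 3.78% called lower. Trrap and Supt3 were picked with these values known, so nothing is read from this count. The median log2 change was -0.18 over the members and 0.01 over all genes tested. In CPM, both Tdrd6-/- samples lay below both Tdrd6+/- samples in 5 members (23.4% of all genes did so) and above them in 1 (20.1%). With 2 samples a genotype, p-values rest on the spread between these pooled samples, moderated by a trend over all genes. The spread between single mice was not measured.

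**Figure D3:**
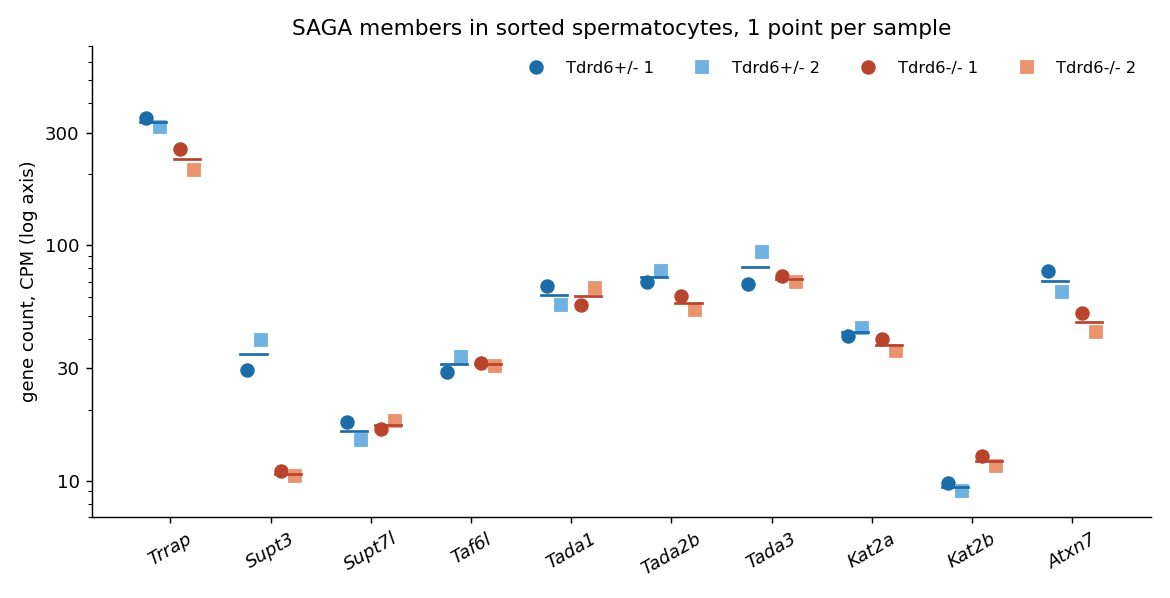
Gene counts in CPM (y axis, log scale) of the 10 members, with a point for each sample and a line at each genotype's mean. Supt3 lies at 29.5 and 39.6 CPM in Tdrd6+/- and at 11.0 and 10.4 CPM in Tdrd6-/- cells, the widest gap among the members.

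Supt3, the core subunit that contacts the TATA-binding protein, was counted 772 and 1102 times in Tdrd6+/- and 348 and 334 times in Tdrd6-/- cells. The mean went from 34.5 ± 7.13 to 10.7 ± 0.40 CPM (SD, n = 2 each), a log2 change of -1.69 (SE 0.19), and the samples did not overlap. The fall ran along the whole gene, chr17:44777152-45119290 on the plus strand. Of its 20 exon segments, 18 were lower in both Tdrd6-/- samples than in both Tdrd6+/- samples, as were all 11 with a mean count of at least 50, where 31.6% of all such segments in the data set were. These segments make up the gene count by which Supt3 was chosen, so nothing is read from their number. Over these 11 segments the ratio of the means was 0.265 to 0.348, and over 7 junctions with such counts it was 0.258 to 0.417. No segment or junction of Supt3 stood out against the rest of the gene. The log2 usage change of the segments with such counts ran from -0.30 in segment 11 (200, 259, 65 and 78 counts) to 0.21 in segment 15 (213, 334, 121 and 98 counts). Among junctions it ran from -0.30 in junction 26 (97, 145, 38 and 35 counts) to 0.51 in junction 31 (107, 157, 72 and 57 counts).

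The introns of Supt3 were lower by less than its exons. Their sum was 3403 and 2350 in Tdrd6+/- against 2380 and 1416 in Tdrd6-/- cells, or 244 and 192 against 184 and 147 CPM of all intron counts. There were 4.41 and 2.13 intronic counts per exonic count in Tdrd6+/- and 6.84 and 4.24 in Tdrd6-/- cells, and these ranges overlapped. The log2 change of this ratio was 0.81, and 0.29 to 1.34 when samples were left out. Divided by the same ratio over all genes of the sample, they were 8.37 and 5.09 against 16.1 and 13.9 and no longer overlapped. That divisor was 0.527 and 0.419 in Tdrd6+/- and 0.425 and 0.306 in Tdrd6-/- cells. Intron 2, which spans 136468 bases and overlaps the 5′ part of the opposite-strand gene Runx2, took the largest share of the counts (41.1%) with 1476, 893, 970 and 582. Of Runx2 itself, 3 and 1 fragments were counted in Tdrd6+/- and 0 in both Tdrd6-/- samples. Of the 7 introns of Supt3 with a mean count of at least 50, 4 were lower in both Tdrd6-/- samples in CPM of all intron counts, beside 20.7% of all such introns.

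**Figure D4:**
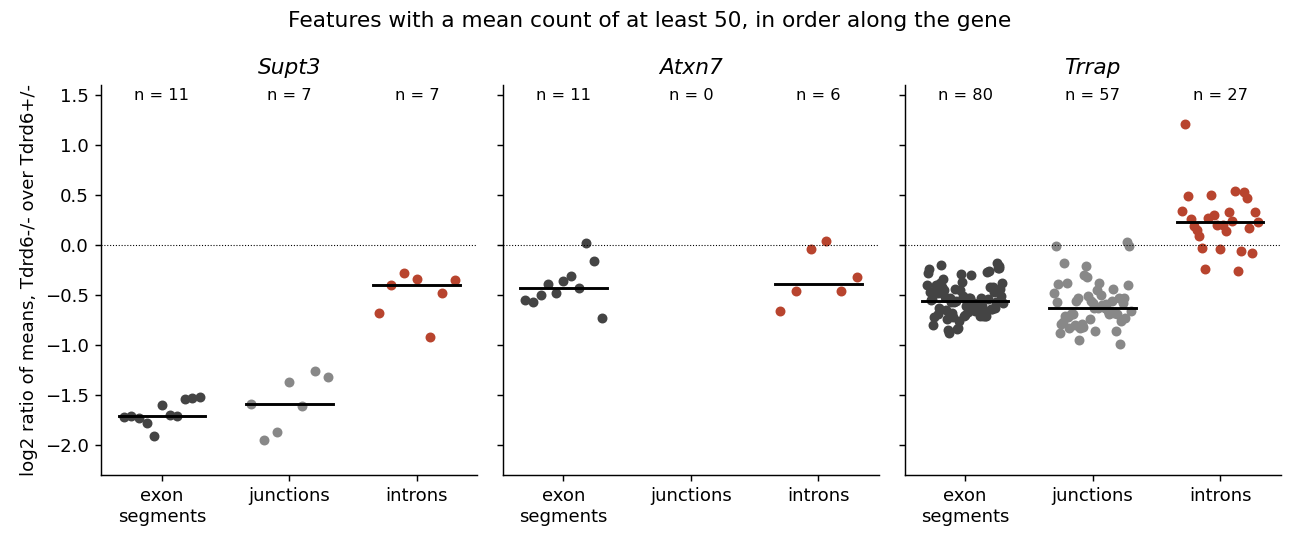
Log2 ratio of genotype means (y axis) for each exon segment, junction and intron of Supt3, Atxn7 and Trrap with a mean count of at least 50, in order along the gene, with a line at the median. Segments and junctions are in CPM and introns in CPM of all intron counts. In Supt3 the exon segments lie far below the introns, and in Trrap intron 4 stands above all other features.

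Supt3 lies 1.15 Mb from Tdrd6 on chromosome 17. Of 22 tested genes within 2 Mb of Tdrd6 on either side, 2 were called, Supt3 and Hsp90ab1, a cytosolic chaperone gene, both lower in Tdrd6-/- cells. On the whole of chromosome 17 without Tdrd6, 38 of 764 genes were called (4.97%), beside 4.79% of all genes without Tdrd6. Supt3 was picked for its lower count, so nothing is read from the number called near Tdrd6. Kat2b lies on the same chromosome, 9.94 Mb from Tdrd6, and was not called. Whether the place of Supt3 near the disrupted gene has a part in its level was not tested.

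Trrap had 9084 and 8798 gene counts in Tdrd6+/- and 8092 and 6633 in Tdrd6-/- cells, 331 ± 22.0 against 232 ± 34.4 CPM (SD, n = 2 each), a log2 change of -0.52 (SE 0.14). This count takes in exonic fragments, not intron 4. The samples did not overlap, but the gene was not called in every setting. Its log2 change was -0.44 without Tdrd6+/- replicate 1, -0.36 without Tdrd6-/- replicate 2 and -0.49 with no filter on low counts. Trrap was picked with these values known, so nothing is read from its calls. Of 80 exon segments with a mean count of at least 50, 75 were lower in both Tdrd6-/- samples, at a ratio of 0.541 to 0.879, beside 31.6% of all such segments (13.3% were higher), and of 57 such junctions 48 were (27.9% of all such junctions). Features of the same gene are not replicates of each other, so these numbers only describe how the lower gene count is spread. Along the gene the strongest usage changes were small. Segment 27 went from 2.51% and 2.43% of the gene count to 2.04% and 1.76%, and segment 81 went from 1.99% and 2.09% to 2.42% and 2.74%. Junction 154, with 78, 67, 45 and 41 counts, had the most negative usage change of the junctions (-0.47) and junction 164, with 52, 52, 67 and 58, the most positive (0.55). The 3 unannotated junctions of Trrap had 58 counts or fewer in any sample.

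Atxn7, the anchor of the deubiquitinase module, fell by 0.58 on the log2 scale (SE 0.15, adjusted p = 0.036, quasi-likelihood test of edgeR, Benjamini-Hochberg adjusted). It had 77.5 and 63.5 CPM in Tdrd6+/- and 51.5 and 42.7 CPM in Tdrd6-/- cells, lower in both samples. The members were chosen with earlier results of these data known, so the adjusted p of Atxn7 is a description only. The adjusted p of edgeR ranged from 0.018 to 0.56 when samples were left out, and the call was lost without Tdrd6+/- replicate 1 (0.236), without Tdrd6-/- replicate 2 (0.56) and with no filter (0.331). No segment or junction of Atxn7 passed the usage test, and those given here were chosen after their values were seen. The last exon segment, chr14:14103307-14107302 and 3996 bases long, had 1232, 1083, 928 and 714 counts, or 60.7% and 61.2% of the gene count against 57.0% and 52.2% (log2 usage change -0.37, SE 0.13, adjusted p = 0.495, DESeq2). Segment 11 before it, chr14:14099935-14100901, had 264, 271, 290 and 275 counts and a share of 13.0% and 15.3% against 17.8% and 20.1% (log2 usage change 0.50, SE 0.17, adjusted p = 0.435, DESeq2). The introns of Atxn7, led by intron 4 with 1350, 838, 822 and 539 counts, had ratios of genotype means from 0.633 to 1.03 among the 6 with such counts.

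The acetyltransferase module did not pass the test. Kat2a, at the higher level per kb of the catalytic pair, had 41.1 and 44.6 CPM in Tdrd6+/- and 40.1 and 35.5 CPM in Tdrd6-/- cells (log2 change -0.18, SE 0.15, adjusted p = 0.677, edgeR). Kat2b, its paralog, went the other way, with 9.74 and 9.05 CPM against 12.7 and 11.5 CPM (0.36, SE 0.20, adjusted p = 0.463, edgeR). Both genes separated the genotypes in CPM by a small margin, in opposite directions. Tada2b, which is particular to the SAGA form of this module, had 69.5 and 77.3 CPM against 60.7 and 52.8 CPM (-0.37, SE 0.14, adjusted p = 0.202, edgeR). Tada3, shared with the ATAC complex, had 68.6 and 93.1 CPM against 73.8 and 69.4 CPM (-0.18, SE 0.15, adjusted p = 0.684, edgeR), and its samples overlapped.

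The other core subunits had overlapping levels in the genotypes. Supt7l had 17.7 and 14.9 CPM in Tdrd6+/- and 16.6 and 18.0 CPM in Tdrd6-/- cells (log2 change 0.09, SE 0.19). Tada1 had 66.8 and 55.8 CPM against 55.6 and 66.1 CPM (-0.01, SE 0.15). The Taf6l row, which the authors had merged with an overlapping gene and which therefore cannot be read as Taf6l alone, had 28.9 and 33.6 CPM against 31.5 and 30.8 CPM (0.00, SE 0.16). All of these overlapped between genotypes, with adjusted p of 0.901 to 0.995 in edgeR. Tada1 and Tada2b also share exonic sequence with the opposite-strand genes Pogk and Grpel1, and whether the counting used strand is not given in the sources used here.

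Among the exon segments and junctions of the members, 383 of 478 were tested and 240 passed the filter on the mean. None was called by DESeq2 (0.221% of all features that passed were, 0.148% higher and 0.0731% lower), none by edgeR, and 18 had an unadjusted p under 0.05 in DESeq2. The 65 features of the merged Taf6l row were not tested. The lowest adjusted p was 0.435. Beside those of Atxn7, the smallest p-values belonged to segment 1 of Kat2a, with 364, 411, 336 and 312 counts, and to low-count features such as junction 50 of Kat2b across a 106-base intron, with 2 and 5 counts in Tdrd6+/- and 19 and 21 in Tdrd6-/- cells. Segment 12 of Tada1 had 17 and 23 against 5 and 10 counts. The latter 2 features did not pass the filter on the mean. Segments 25 and 26 of Kat2b, on either side of that intron, had 10, 9, 28 and 32 and 9, 14, 35 and 32 counts and were likewise below the filter. In Kat2a, segment 1 took 33.8% and 33.1% of the gene count in Tdrd6+/- against 26.5% and 27.5% in Tdrd6-/- cells (log2 usage change -0.44, SE 0.15, adjusted p = 0.455, DESeq2). Segment 20 of Kat2a went the other way, from 8.08% and 8.69% to 12.6% and 10.5% (0.51, SE 0.23, adjusted p = 0.965, DESeq2). Segment 3 of Tada2b had 5.93% and 6.55% against 8.39% and 9.05% of the gene count (0.52, SE 0.21, adjusted p = 0.771, DESeq2). The genotypes did not overlap in any of these shares. Nothing is read from that, since these segments were chosen after their values were seen.

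In the members other than Trrap and Supt3, the intron with the most counts did not pass the test where it could be tested. Intron 1 of Tada1 (1305 bases, overlapped by the antisense gene Gm15853) had 292, 390, 370 and 377 counts, a log2 usage change of 0.33 (SE 0.22, adjusted p = 0.645, DESeq2). Intron 2 of Kat2b (16547 bases) had 96, 107, 189 and 74 counts (0.14, SE 0.26, adjusted p = 0.943, DESeq2). The sole intron of Tada2b, 6825 bases, had 430 and 424 counts in Tdrd6+/- and 296 and 271 in Tdrd6-/- cells, and a sole intron has no other introns to be set against. The leading introns of Supt7l, Taf6l, Tada3 and Kat2a, in chromosome order introns 3, 3, 1 and 5, took 30.3%, 36.4%, 32.4% and 12.2% of their gene's intron counts.

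Set against exons and relative to all genes, the intronic counts of Trrap and Supt3 were over 1 log2 unit higher in Tdrd6-/- cells, and those of no other member were. Both genes were chosen by counts that enter this ratio, so nothing is read from their standing apart. Trrap had 0.738 and 0.683 intron counts per gene count in Tdrd6+/- and 1.20 and 1.11 in Tdrd6-/- cells. Without intron 4, and likewise not divided by the ratio of all genes, its ratio was 45.8 and 45.2 against 60.5 and 48.2 per 100 gene counts. That was higher in both Tdrd6-/- samples, by a smaller margin than with intron 4 on this undivided scale. Across all genes, the ratio itself had a median log2 change of -0.25 over 12015 genes, and of -0.29 over the members. Summed over all genes of a sample, it was 0.527 and 0.419 in Tdrd6+/- and 0.425 and 0.306 in Tdrd6-/- cells. These values overlapped between genotypes. Divided by the ratio of all genes in the sample, the medians were 0.14 and 0.10. On that scale Trrap changed by 1.09, Supt3 by 1.19 and the other members by -0.09 (Supt7l) to 0.30 (Kat2a), and 4 of 10 members lay higher in both Tdrd6-/- samples, beside 31.5% of all genes, and 1, Supt7l, lay lower in both, beside 13.8%. On this relative scale Kat2a, Taf6l, Tada3, Tada2b and Supt7l stayed between 0.190 and 0.573 in every sample, below the level of all genes, and Tada1 lay between 0.819 and 1.25. Taf6l, also among the 4 that lay higher, is divided by the count of its merged row, so its ratio cannot be read as Taf6l alone. Atxn7 lay between 3.19 and 3.73 and Kat2b between 4.08 and 6.12. Supt3 was the highest member in 3 samples and second to Kat2b in Tdrd6+/- replicate 2 (5.09 against 6.12). Against the exonic count of the gene, with intron and gene totals scaled separately, 8 of 35 member introns that passed the filter were called, beside 4.25% of all introns, and all were higher in Tdrd6-/- cells, where 1.05% of all introns were. All 8 belong to Trrap and Supt3, which were chosen by the intron count and the exonic count that enter this ratio, so nothing is read from their number. They were introns 4, 5, 32 and 44 of Trrap and introns 2, 3, 5 and 11 of Supt3, with log2 changes of 0.70 to 1.58. Of Atxn7, whose gene count was called lower as well, 6 introns passed this filter and are not among the 8 called.

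**Figure D5:**
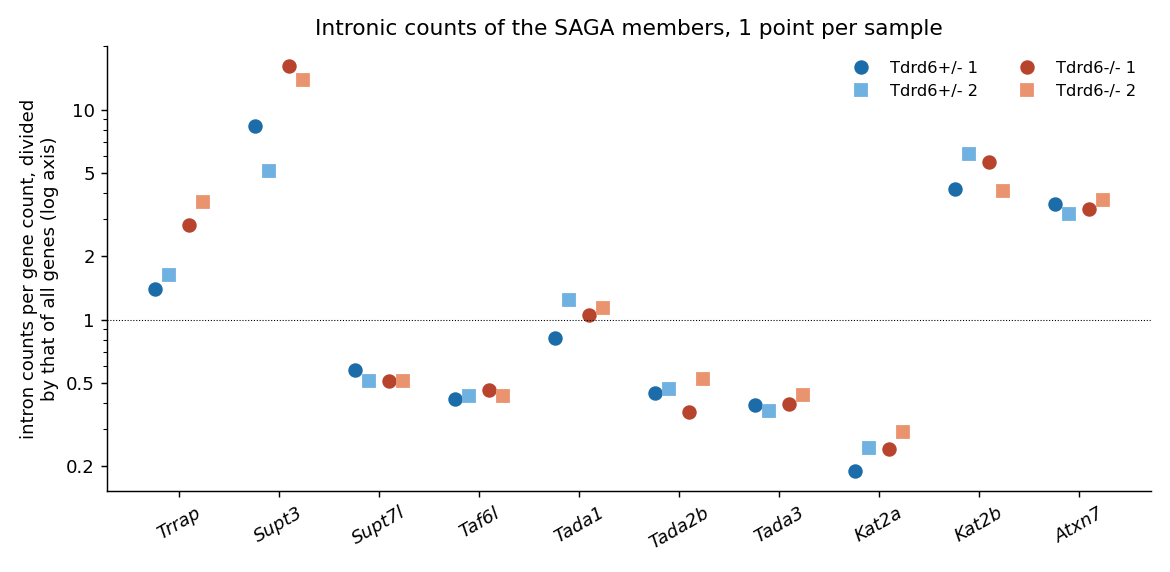
Intron counts per gene count of each member, divided by that of all genes in the same sample (y axis, log scale, dotted line at 1), with a point for each sample. Trrap and Supt3 are the members with a clear gap between genotypes, at 1.40 and 1.63 against 2.83 and 3.64 for Trrap. Both were chosen by counts that enter this ratio. Taf6l is divided by the count of its merged row.

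Per kb of annotated exon, the order of the members by mean level over the 4 samples was Tada3 (19.6 CPM per kb), Trrap (18.5), Tada2b (17.2), Tada1 (14.9), Kat2a (11.6), Atxn7 (8.58), Supt7l (6.24), Supt3 (5.49) and Kat2b (2.21), with the merged Taf6l row left out. Only Tada1 and Kat2a, among neighbours in this order, had ranges over samples that did not overlap. Supt3 spanned 7.15 and 9.60 CPM per kb in Tdrd6+/- but 2.67 and 2.53 in Tdrd6-/- cells, where it was about level with Kat2b (2.61 and 2.36). Trrap ranked 3413 from the top of 16223 genes.

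The 14 further SAGA subunits, from the SUPT20 and TAF parts of the core to the deubiquitinase Usp22 and the splicing factor subunits Sf3b3 and Sf3b5, were all tested and none was called by edgeR or DESeq2, with 3 at an unadjusted p under 0.05 in edgeR. Their median log2 change was 0.12, with 4 negative, and ran from -0.43 in Atxn7l1, a paralog of Atxn7, to 0.73 in Taf9b. The Supt20 and Taf9 rows, counted among these, are merged with other genes and cannot be read as these subunits alone. Usp22 had 11.6 and 11.4 CPM in Tdrd6+/- and 15.1 and 15.3 CPM in Tdrd6-/- cells (0.40, SE 0.19, adjusted p = 0.356, edgeR).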

How the data were processed

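RNA of captured cells was depleted of ribosomal RNA and made into directional libraries. The authors deposited unnormalized counts per gene, exon segment, junction and intron, made from GSNAP alignments to mm10 and the Ensembl release 75 annotation. The processing notes name bcl2fastq 1.8.4. The counting program is not given in the sources used here. Gene counts went through filterByExpr, TMM scaling and the quasi-likelihood test of edgeR 4.0.16. Usage was tested with DESeq2 1.42.0 in R 4.3.3 by a likelihood ratio test of feature against the rest of its gene, for features with at least 10 counts and with independent filtering on the mean. Adjustment was by Benjamini-Hochberg over all features, at a false discovery rate of 0.1. Scripts were tested on simulated data. Introns were placed by order on GENCODE M21 exons of transcripts numbered below 185000, which matched 90.5% of 24963 genes. Named features were all members at gene level, Trrap introns 3 to 5, each member's leading intron, called features, and the strongest usage changes of Trrap and Supt3 at a mean count of at least 50. The other exon segments and junctions named were chosen after their values were seen. The members and lists were chosen with earlier results of these data known.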

Additional observations from a re-analysis of the deposited data

How the results depend on the processing

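Trrap and Supt3 were picked with these values known, so their calls here are a description only. Among the members, 3 genes were called under a false discovery rate of 0.05, DESeq2's Wald test and the replicate block, and 1 (Supt3) with no filter on low counts. Leaving out each sample gave 1 to 3. The replicate block called 3 members among 1046 genes in all, against 794 without it, and crossed numbers, added after seeing the data, gave 1175. Same-numbered samples deviated with a correlation of -0.108 over genes and 0.049 over introns, and the labels do not pair them. In intron usage, 1 member intron was called under the replicate block (881 introns in all, against 561), TMM factors and no filter, 2 with edgeR's usage test (283), 8 with the exonic reference (1266) and 0 with Trrap intron 4 left out. Leaving out each sample gave 1 to 3 member introns and, over all introns, 4 without the first and 333 without the second Tdrd6+/- sample, and 1175 without the first and 12 without the second Tdrd6-/- sample. No exon segment or junction of a member was called under any setting run, the replicate block included, while the calls over all such features went from 327 to 192 with no filter and 51 to 763 with samples left out. Over all genes, 75 were called with no filter and 257 without Tdrd6-/- replicate 2, and over all introns 147 with no filter. The fold of Trrap intron 4 was 1.48 as a share of intron counts, 2.40 per exonic count and 2.32 per all intron counts, and 1.38 to 1.58 with samples left out. The median log2 change of intronic per exonic counts was -0.29, and 0.10 divided by that of all genes, and -0.44 to -0.06 with samples left out. Uncalled values near 0 changed sign: Taf6l (0.0095 with DESeq2, 0.021 with no filter) and Tada1 (0.0020 and 0.015), and with samples left out Supt7l (-0.032 to 0.23), Taf6l (-0.098 to 0.11), Tada1 (-0.13 to 0.14) and Tada3 (-0.37 to 0.063). Usage of Trrap introns 3 and 5 was 0.71 and 0.86 with the exonic reference and 0.16 and 0.32 with intron 4 left out, and -0.34 to 0.031 in intron 5 with samples left out. Both settings change what the intron is set against.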

Other observations

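In the TIP60 complex, which also contains Trrap, 3 of 17 genes tested were called, all lower in Tdrd6-/- cells, beside 4.8% of all genes called and 3.78% called lower. This list was chosen with earlier results of these data known, so nothing is read from the number called. Mbtd1, a histone reader subunit, had 339 and 267 CPM in Tdrd6+/- and 172 and 142 CPM in Tdrd6-/- cells (log2 change -0.94, SE 0.14). Morf4l1, a chromodomain subunit, had 307 and 247 against 183 and 154 CPM (-0.72, SE 0.14). The row of Ep400, the ATPase of the complex, is merged with an overlapping gene and had 1149 and 1284 against 832 and 758 CPM (-0.61, SE 0.13). The median of the list was -0.04, with 10 of 17 negative, and the acetyltransferase Kat5 had 147 and 182 against 163 and 181 CPM. In the ATAC complex, which shares Kat2a, Kat2b and Tada3, none of 8 genes was called by edgeR or DESeq2 and 1 had an unadjusted p under 0.05 in edgeR (median log2 change -0.20). The rows of Epc1 in the TIP60 list and Kat14 in the ATAC list are merged with other genes as well.

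Among the kinases of the family to which TRRAP belongs, 2 of 5 genes were called, both lower, beside the same 4.8% and 3.78% of all genes. Earlier results were known when this list was chosen too, and its number called is a description only. Smg1, a kinase of nonsense-mediated decay, had 839 and 788 CPM in Tdrd6+/- and 590 and 469 CPM in Tdrd6-/- cells (-0.62, SE 0.14), and Mtor had 617 and 745 against 504 and 456 CPM (-0.51, SE 0.13). Atr, the most abundant of them in CPM, had 2295 and 2133 against 2095 and 1921 CPM and was not called, nor were Atm and Prkdc. The median log2 change of the 5 was -0.47, beside 0.01 over all genes.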
